A study of Homo sapiens with 8 samples.

Results

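The Rag GTPases and 6 partners that carry the nutrient signal to mTORC1 were followed across a drug experiment in A549 cells, a human lung adenocarcinoma line. The members were taken by name: RRAGA, RRAGB, RRAGC, RRAGD, LAMTOR1, NPRL3, FLCN, FNIP1, MTOR and RPTOR, which are 10 of the 60624 genes counted, found by matching Ensembl identifiers to GENCODE 44 symbols on GRCh38. They were chosen because RRAGB was higher with indisulam than without it, so the values of indisulam against untreated cells describe that choice and carry no test here. All 10 members passed the filter on low counts, as did 18661 genes in all. Poly(A) RNA was sequenced from 4 groups of 2 libraries: untreated cells, cells given indisulam, cells given SPHINX31, and cells given both agents, called the combination. All 4 groups were A549 cells grown in RPMI medium with fetal bovine serum, and the labels name no genetic change in any of them. Indisulam is an aryl sulfonamide that recruits the splicing factor RBM39 to the DCAF15 ubiquitin ligase, so that RBM39 is degraded. SPHINX31 inhibits SRPK1, a kinase that phosphorylates splicing factors rich in serine and arginine. The sample labels give 2 µM indisulam and 18 h of treatment, whereas the methods of the study give 0.5 µM indisulam, 5 µM SPHINX31 and 24 h, and which of them applies to these libraries was not settled here. The 2 libraries of a group are technical replicates, so every p-value below measures only the spread between such libraries.

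Rag GTPases work as pairs on the lysosome surface, where RRAGA or RRAGB joins RRAGC or RRAGD. Ragulator, which LAMTOR1 tethers to the lysosomal membrane, holds the pair in place. When amino acids are plentiful the pair binds RPTOR and so brings mTORC1, the growth-promoting complex built on the kinase MTOR, to the lysosome. GATOR1, of which NPRL3 is a subunit, switches RRAGA and RRAGB off when amino acids run short, whereas FLCN with FNIP1 switches RRAGC and RRAGD to the form that activates mTORC1 towards some of its substrates. TFEB and TFE3, transcription factors of lysosomal genes, are among those substrates and bind DNA motifs built around CACGTG.

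The sum of gene counts ran from 51727369 to 63186989 per library (median 57337791). Epithelial markers were high (KRT8 between 3474 and 4103 CPM, EPCAM between 25.4 and 33.6 CPM), and of the 9 immune, endothelial and fibroblast markers CD3E was at 0 in all 8 libraries, PECAM1 reached 2.36 CPM, COL1A1 reached 4.65 CPM and the other 6 reached at most 0.205 CPM, where CPM is the usual depth-scaled count with TMM factors applied. In bulk RNA, fewer cells of a kind and less RNA per cell cannot be told apart. Genes counted as called below had a Benjamini-Hochberg adjusted p under 0.05 in edgeR's quasi-likelihood test over all 18661 genes.

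The windows just upstream of 4 members are shown because these genes differed with one or both agents and because 3 of them hold CACGTG, the core of the motif that TFEB and TFE3 bind. Each runs 5′ to 3′ on the strand of the gene over the 250 bases before the RefSeq transcript start on GRCh38.p14, and capitals mark CACGTG. RRAGB lies at chrX:55717499-55717748 on the plus strand, RRAGC at chr1:38859773-38860022 on the minus strand, FNIP1 at chr5:131797018-131797267 on the minus strand and FLCN at chr17:17237169-17237418 on the minus strand.
RRAGB: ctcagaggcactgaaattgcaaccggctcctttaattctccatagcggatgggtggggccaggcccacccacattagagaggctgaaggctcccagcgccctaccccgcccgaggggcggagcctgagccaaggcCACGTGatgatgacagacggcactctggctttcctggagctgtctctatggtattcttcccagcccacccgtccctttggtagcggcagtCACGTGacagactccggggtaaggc
RRAGC: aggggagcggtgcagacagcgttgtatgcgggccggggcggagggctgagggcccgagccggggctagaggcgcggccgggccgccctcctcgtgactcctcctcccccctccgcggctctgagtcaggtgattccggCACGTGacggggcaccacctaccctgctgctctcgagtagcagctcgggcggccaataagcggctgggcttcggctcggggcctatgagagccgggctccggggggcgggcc
FNIP1: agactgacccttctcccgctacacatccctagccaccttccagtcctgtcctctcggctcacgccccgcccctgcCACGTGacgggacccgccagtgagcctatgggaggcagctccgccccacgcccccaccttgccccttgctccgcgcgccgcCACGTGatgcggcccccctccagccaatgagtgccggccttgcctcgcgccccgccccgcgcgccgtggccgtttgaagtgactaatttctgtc
FLCN: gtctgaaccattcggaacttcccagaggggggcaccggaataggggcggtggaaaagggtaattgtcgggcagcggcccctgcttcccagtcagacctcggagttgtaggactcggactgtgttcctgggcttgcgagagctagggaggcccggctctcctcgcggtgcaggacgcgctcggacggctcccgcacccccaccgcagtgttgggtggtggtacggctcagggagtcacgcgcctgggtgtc
Both CACGTG matches of RRAGB lie 115 and 25 bases before the start. FNIP1 held CACGTG at 175 and 94 bases before its start, RRAGC at 112 bases, and LAMTOR1, whose window is not printed, at 165 bases. FLCN, MTOR, RPTOR and NPRL3 had no CACGTG in this window. Of 34943 windows of the same length, 6.32% held CACGTG, 0.532% held it at least 2 times and 3.29% held TCACGTG on either strand. CACGTG reads the same on both strands and is contained in TCACGTG. Windows were found for 8 of the 10 members, all but RRAGA and RRAGD, and for 41 of 54 pathway genes. Outside the members, LAMTOR4, PRR5 and TSC2 also held CACGTG in a window. A match describes letters in a window and was not tested as a binding site.

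RRAGB, a partner for RRAGC or RRAGD, set the cells given indisulam apart. It was measured at 8.53 and 8.42 CPM in the untreated libraries and at 34.4 and 34.5 CPM in the indisulam libraries. The SPHINX31 libraries held 8.62 and 9.23 CPM, and the combination libraries held 35.2 and 35.5 CPM. All 4 libraries with indisulam were therefore far above the 4 without it, and SPHINX31 made little difference to either level. The gene spans chrX:55717749-55758774 on the plus strand, its canonical transcript has 10 exons and 2051 bases, and between 467 and 2034 reads were counted per library.

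The comparison that shares no library with indisulam against untreated cells is the combination against SPHINX31 alone. It asks what indisulam does when SPHINX31 is already present. The members were chosen with earlier results of these data known, so the result for RRAGB here is no independent test of its rise with indisulam. RRAGB was 3.96-fold higher in the combination, which is 1.98 ± 0.067 on the log2 scale (SE, n = 2 libraries in each group), with an adjusted p of 1.65e-10 in edgeR's quasi-likelihood test. That change ranked 190 from the top of all 18661 genes tested, and 3 from the top of the 9980 genes whose edgeR average log2 CPM reached 3. Leaving out any 1 library gave values from 1.95 to 2.05. In indisulam against untreated cells, the contrast that chose the members, the log2 fold change was 2.02 ± 0.067 (SE), given as a description. SPHINX31 alone gave a log2 change of 0.08 ± 0.073 in RRAGB (adjusted p = 0.578), and adding it to indisulam gave 0.04 ± 0.061 (adjusted p = 0.777).

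**Figure D1:**
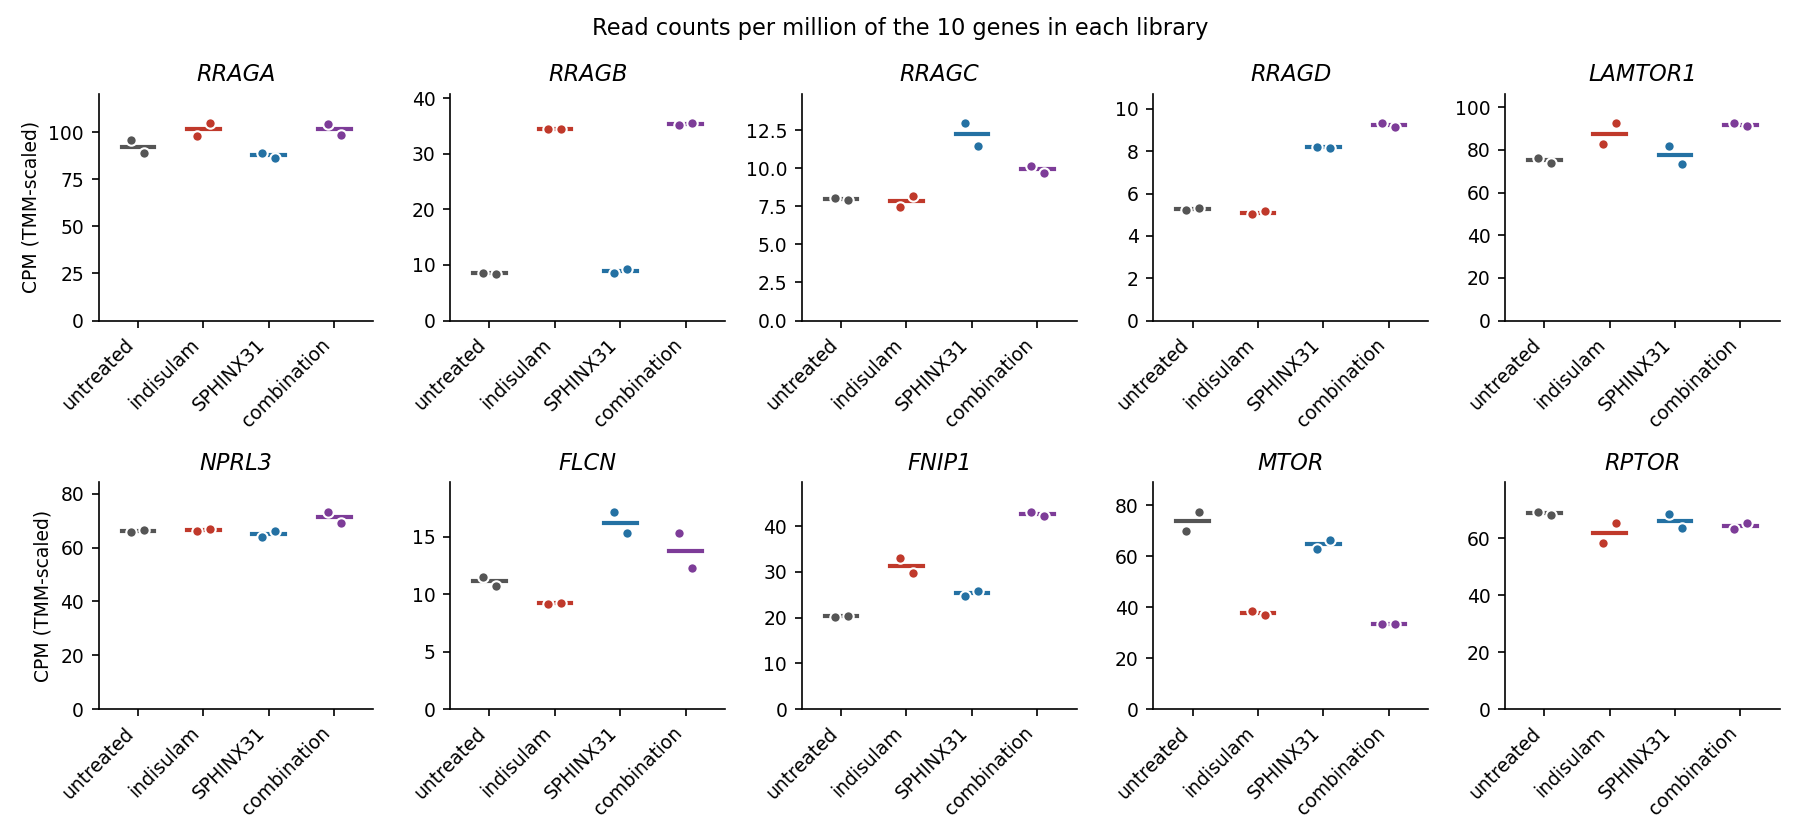
CPM of the 10 members in each of the 8 libraries, one panel per gene with its own axis starting at 0, points for libraries and bars for the mean of each group of 2. RRAGB sits between 34.4 and 35.5 CPM in the 4 libraries with indisulam and between 8.42 and 9.23 CPM in the other 4, MTOR shows the opposite order, and RRAGC and RRAGD are higher in the libraries with SPHINX31.

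RRAGA, the closest relative of RRAGB and a gene with a single exon, differed in the same direction but far less. It was measured at 96 and 88.7 CPM in untreated cells, 98.2 and 105 CPM with indisulam, 88.9 and 86.4 CPM with SPHINX31, and 104 and 98.6 CPM in the combination. The combination was 1.16-fold above SPHINX31 (log2 fold change 0.21 ± 0.057, adjusted p = 0.00703), a call that was lost without combination replicate 1 (adjusted p = 0.0587). SPHINX31 alone gave a log2 change of −0.08 ± 0.057 (adjusted p = 0.457). The longest run of identical bases between the canonical transcripts of RRAGA and RRAGB was 32 bases.

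Levels of both genes can be set beside each other once counts are divided by the length of the canonical transcript. On that scale RRAGB made up 6.48% and 6.89% of the summed level of RRAGA and RRAGB in untreated cells and 7.03% and 7.69% with SPHINX31. It made up 21.5% and 20.4% with indisulam and 20.8% and 21.9% in the combination. RRAGA remained the more abundant of the pair in every library. The summed level was 64.2 and 59.6 CPM per kilobase in untreated cells, 59.8 and 58.5 with SPHINX31, 78.2 and 82.4 with indisulam, and 82.4 and 79 in the combination, so the sum was also higher in all 4 libraries with indisulam. These shares assume that every read came from the canonical transcript, since gene counts do not separate transcripts.

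**Figure D2:**
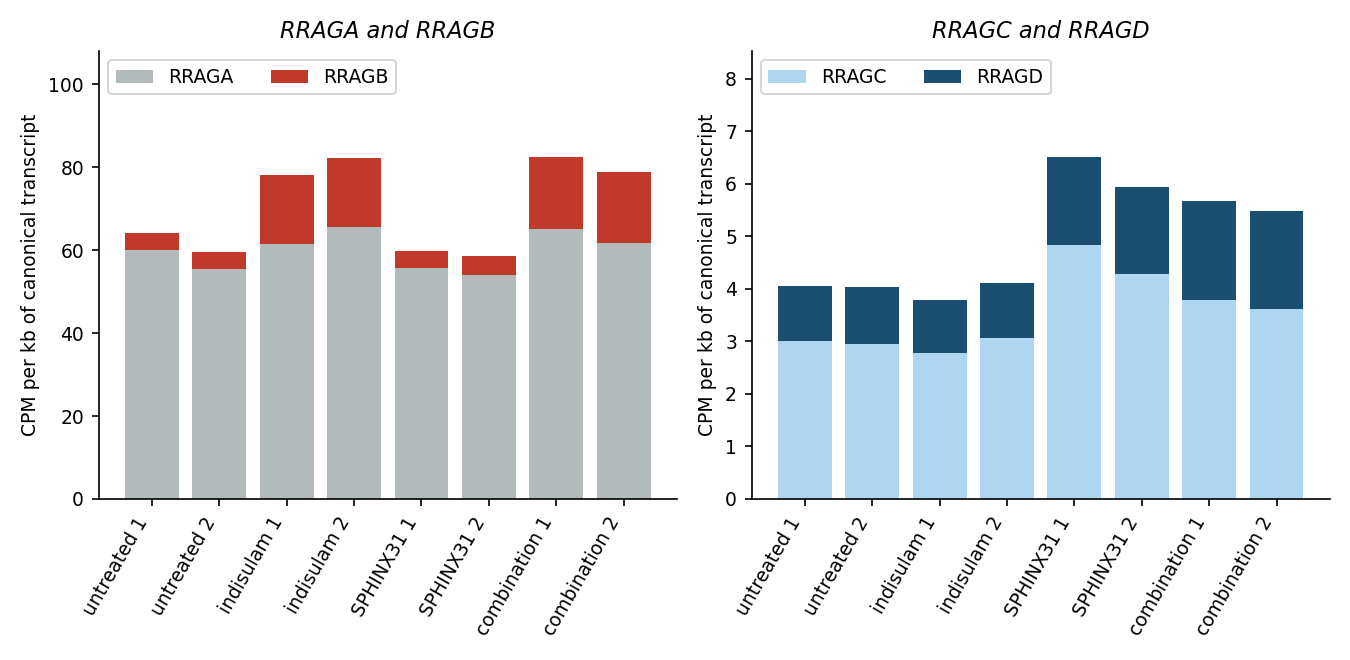
Levels of RRAGA and RRAGB, and of RRAGC and RRAGD, in CPM per kilobase of canonical transcript, as one stacked bar per library and 2 bars per group. RRAGB makes up between 20.4% and 21.9% of its bar in the libraries with indisulam and at most 7.69% in the others. The share of RRAGD stands apart only in the combination, at 33.4% and 33.9%.

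RRAGC and RRAGD, the other side of the Rag pair, responded to SPHINX31. RRAGC was measured at 8.04 and 7.9 CPM in untreated cells and at 13 and 11.5 CPM with SPHINX31. It held 7.45 and 8.2 CPM with indisulam and 10.1 and 9.71 CPM in the combination. Both SPHINX31 groups lay above both groups without it, and the SPHINX31 libraries lay above those of the combination. Against untreated cells SPHINX31 gave 0.61 ± 0.089 on the log2 scale (adjusted p = 0.00081), and the value stayed between 0.52 and 0.70 when any 1 library was left out. With indisulam present the difference made by SPHINX31 was 0.35 ± 0.092 (adjusted p = 0.034). That call was lost without indisulam replicate 1 (adjusted p = 0.214), combination replicate 1 (adjusted p = 0.153) or combination replicate 2 (adjusted p = 0.112). It also failed in DESeq2 (adjusted p = 0.051).

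RRAGD, the least abundant member per length in every group, was also higher with SPHINX31. Untreated cells held 5.23 and 5.32 CPM and cells with indisulam 5.02 and 5.18 CPM. Cells with SPHINX31 held 8.21 and 8.17 CPM and the combination 9.32 and 9.15 CPM. No library without SPHINX31 reached the level of any library with it. SPHINX31 raised RRAGD 1.55-fold over untreated (log2 fold change 0.64 ± 0.088, adjusted p = 0.000539) and 1.81-fold over indisulam (0.86 ± 0.088, adjusted p = 0.000111), and both calls held without any 1 library. These comparisons share no library with each other. The difference between them, 0.22 ± 0.125, did not pass (adjusted p = 0.66).

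Between the combination and SPHINX31, RRAGC fell by 0.30 ± 0.088 on the log2 scale (adjusted p = 0.0118), and RRAGD differed by 0.17 ± 0.084 (adjusted p = 0.0995). The RRAGC call was lost without SPHINX31 replicate 1 (log2 fold change −0.20, adjusted p = 0.133) or combination replicate 2 (−0.27, adjusted p = 0.0714). RRAGD accordingly made up a larger share of the summed RRAGC and RRAGD level per length in the combination, 33.4% and 33.9%, than in any other library, where it ranged from 25.6% to 28%. The longest run of identical bases between their canonical transcripts was 21 bases. RRAGC, at chr1:38838198-38859772 on the minus strand, shares 1183 exonic bases with a long non-coding RNA on the same strand that had no count in any library, and how reads in such stretches were assigned is not given in the sources used here.

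FNIP1, which works with FLCN to act on RRAGC and RRAGD, was higher with each agent. It was measured at 20.1 and 20.4 CPM in untreated cells, 24.7 and 25.8 CPM with SPHINX31, 33 and 29.7 CPM with indisulam, and 43.2 and 42.2 CPM in the combination. The 4 groups did not overlap, and their levels increased in that order. The combination exceeded SPHINX31 1.69-fold (log2 fold change 0.75 ± 0.065, adjusted p = 4.44e-07), and left-out libraries moved the value only between 0.73 and 0.80. Against indisulam alone the combination was higher by 0.44 ± 0.064 (adjusted p = 0.00096). SPHINX31 against untreated gave 0.32 ± 0.067 (adjusted p = 0.00877), a call lost without untreated replicate 1 (adjusted p = 0.0863) or untreated replicate 2 (adjusted p = 0.0651). The gene lies at chr5:131641714-131797017 on the minus strand. It shares 281 exonic bases with a protein-coding gene on the same strand that had no count in any library.

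FLCN, a tumour suppressor and the partner of FNIP1, was higher in the cells given SPHINX31. Untreated cells held 11.5 and 10.7 CPM and cells with SPHINX31 17.2 and 15.3 CPM. Cells with indisulam held 9.17 and 9.26 CPM and the combination 15.3 and 12.3 CPM. Every library with SPHINX31 was above every library without it. SPHINX31 raised FLCN by 0.55 ± 0.101 on the log2 scale over untreated (adjusted p = 0.00432) and by 0.58 ± 0.105 over indisulam (adjusted p = 0.00428). The former call was lost without untreated replicate 2 (adjusted p = 0.055) or SPHINX31 replicate 1 (adjusted p = 0.0508), and the latter without combination replicate 1 (adjusted p = 0.0537). The combination libraries differed more from each other than those of any other group, and against SPHINX31 the combination differed by −0.23 ± 0.099 (adjusted p = 0.0641), which passed without combination replicate 1 (−0.39, adjusted p = 0.0108). FLCN lies at chr17:17212212-17237188 on the minus strand and shares 1161 exonic bases with a readthrough gene on that strand, which itself received at most 6 counts in a library.

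MTOR, the kinase of both mTOR complexes, was lower wherever indisulam was present. Untreated cells held 70 and 77.5 CPM and cells with SPHINX31 63 and 66.4 CPM. Cells with indisulam held 38.4 and 37 CPM and the combination 33.6 and 33.4 CPM. The combination was at 0.518 times the SPHINX31 level, which is −0.95 ± 0.062 in log2 units (adjusted p = 3.15e-08) and stayed between −0.98 and −0.90 without any 1 library. In indisulam against untreated cells the change was −0.97 ± 0.062, as a description. SPHINX31 alone gave −0.19 ± 0.060 (adjusted p = 0.0665), and adding it to indisulam gave −0.17, which did not pass either. With a correction for GC content, chosen after seeing the data, both passed in edgeR (adjusted p = 0.022 and 0.0289). The former also passed with every gene of at least 1 count kept (adjusted p = 0.0493). MTOR spans chr1:11106535-11262556 on the minus strand, with 58 exons in its canonical transcript of 8721 bases.

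RPTOR, which binds the Rag pair and the substrates of mTORC1, differed far less than MTOR. Its 8 libraries ranged from 58.4 to 69.3 CPM, and the combination libraries, at 63.3 and 65.3 CPM, overlapped those of SPHINX31, at 68.5 and 63.6 CPM. The log2 difference was −0.04 ± 0.062 (adjusted p = 0.638), and edgeR called RPTOR in none of the tested comparisons with the scaling and filter used here.

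LAMTOR1 was measured at 76.3 and 74 CPM in untreated cells, 82.6 and 92.5 CPM with indisulam, 81.9 and 73.6 CPM with SPHINX31, and 92.4 and 91.2 CPM in the combination. The combination lay above SPHINX31 by 0.24 ± 0.064 on the log2 scale (adjusted p = 0.00671), a call lost without SPHINX31 replicate 2 (adjusted p = 0.0547). NPRL3 stayed between 64.1 and 73.4 CPM in all libraries. Its combination libraries were the highest, at 73.4 and 69 CPM, and exceeded SPHINX31 by 0.13 ± 0.052 (adjusted p = 0.0517). In edgeR this difference passed with RLE in place of TMM scaling (adjusted p = 0.0411) and with library totals alone (adjusted p = 0.0282). It also passed with at least 10 counts required in every library (adjusted p = 0.0411), but not in DESeq2, with the replicate block or with GC correction. NPRL3 shares 451 exonic bases with MPG on the opposite strand, which was expressed at 28.5 to 35.5 CPM.

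Counted together, 6 of the 10 members were called between the combination and SPHINX31: RRAGA, RRAGB, LAMTOR1 and FNIP1 were higher and RRAGC and MTOR lower. The test called 50.0% of all genes in that comparison, 23.4% higher and 26.5% lower, so a count of 6 in 10 is close to the background. The median log2 fold change was 0.15 over the members and 0.00 over all genes. For SPHINX31 against untreated, 4 of 10 members were called, RRAGC, RRAGD, FLCN and FNIP1, all higher, where 8.66% of all genes were called, 5.03% higher and 3.63% lower. The same 4 were called, all higher, for the combination against indisulam, where 7.64% of all genes were called, 3.22% higher and 4.42% lower. SPHINX31 against untreated shares the untreated libraries with the contrast that chose the members, and the combination against indisulam shares the indisulam libraries. With library totals as the only scaling, the balance of all calls shifted from 938 higher and 678 lower to 1355 and 513 for SPHINX31 against untreated. For the combination against indisulam it shifted from 601 and 825 to 965 and 505.

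**Figure D3:**
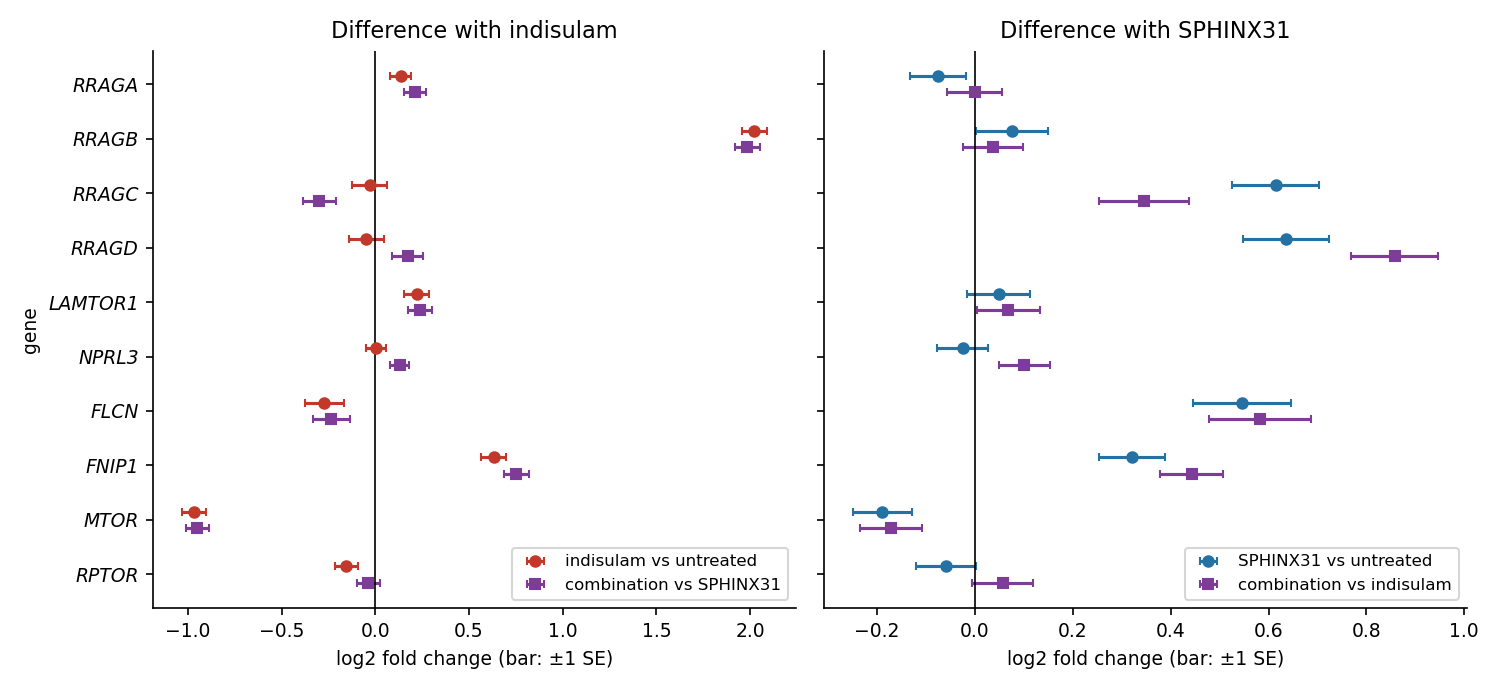
Log2 fold changes of the 10 members from the edgeR fit in the compared pairs of groups, with bars of 1 standard error and 2 libraries in each group. RRAGB at 1.98 and MTOR at −0.95 stand out for the combination against SPHINX31, and RRAGC, RRAGD and FLCN at 0.55 to 0.64 for SPHINX31 against untreated.

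The combination against untreated cells, which again shares the untreated libraries, called 7 of 10 members, 6 higher and 1 lower, where 49.9% of all genes were called, 23.8% higher and 26.2% lower. FNIP1 was 2.11-fold higher (log2 fold change 1.07 ± 0.065, adjusted p = 1.47e-08), RRAGD 1.75-fold higher (0.81 ± 0.087, adjusted p = 3.54e-06) and MTOR at 0.454 times its untreated level (−1.14 ± 0.062, adjusted p = 5.13e-09). LAMTOR1, RRAGC and FLCN were higher by 0.29, 0.32 and 0.31, of which the RRAGC and FLCN calls were lost without combination replicate 1 or untreated replicate 2. RRAGB had a log2 fold change of 2.06 there. In indisulam against untreated cells, 4 members had an adjusted p under 0.05 and 43.6% of all genes did, and nothing is read from that count. Whether the effect of indisulam depended on SPHINX31 was asked with an interaction term, the difference between the 2 indisulam effects on the log2 scale. No member passed it and none had an unadjusted p under 0.05. Over all genes edgeR's quasi-likelihood test called 0, with 1565 at an unadjusted p under 0.05, and DESeq2 called 31. The interaction of RRAGB was −0.04 ± 0.095 and that of RRAGC −0.27 ± 0.128. On simulated data the interaction test found 39% of log2 departures of 0.5 and 64% of those of 1, so departures of these sizes can be missed. The changed genes there were drawn at random from all tested genes, including those with low counts. These shares are therefore averages over genes and do not give the rate for a single member such as RRAGB.

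The order of the members by level per length differed between the groups, and where indisulam was present RRAGB stood 2 ranks higher and MTOR 2 ranks lower than in untreated cells. In untreated cells LAMTOR1 was highest at 69 ± 1.53 CPM per kilobase (SD, n = 2), followed by RRAGA at 57.8 ± 3.2, NPRL3 at 21.2 ± 0.157, RPTOR at 10.1 ± 0.115 and MTOR at 8.46 ± 0.608. RRAGB ranked 6 from the top at 4.13 ± 0.037, above FNIP1, FLCN and RRAGC, which lay between 2.97 and 3.08. FNIP1 overlapped FLCN and FLCN overlapped RRAGC, so their order is not resolved. RRAGD was last at 1.07 ± 0.013. With indisulam RRAGB ranked 4 from the top at 16.8 ± 0.019, above RPTOR at 9.05 ± 0.709, and in the combination it held the same rank at 17.2 ± 0.128. MTOR fell to 4.33 ± 0.115 with indisulam, under FNIP1 at 4.77 ± 0.35, and to 3.84 ± 0.011 in the combination, where its libraries neighboured and overlapped those of FLCN. With SPHINX31 alone, RRAGC, FLCN and RRAGB lay between 4.35 and 4.56 and overlapped as neighbours.

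The surrounding pathway was read from 54 genes grouped by role, all of which passed the filter. Between the combination and SPHINX31, 33 of the 54 were called, 20 higher and 13 lower, where 50.0% of all genes were called, 23.4% higher and 26.5% lower. The share of the pathway is thus near that of all genes, and the counts by role rest on 3 to 8 genes each and carry no test. Of the Ragulator subunits and the lysosomal sensor SLC38A9, 4 of 6 were higher and 1 lower. Of GATOR2, the complex that restrains GATOR1, 4 of 5 were lower and none higher. Of the cytosolic amino acid sensors 1 of 7 was higher and 2 lower, and of the mTORC1 substrates 4 of 8 were higher and 2 lower. Of the mTORC2 components apart from MTOR, 3 of 4 were higher. GATOR1 had 1 of 3 lower, KICSTOR 1 of 4 higher, and the TSC complex with RHEB 3 of 5 higher and 1 lower. Of the Rag GTPases 2 of 4 were higher and 1 lower, of the FLCN complex 1 of 3 was higher, and of the mTORC1 components 1 of 5 was higher and 1 lower.

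The larger changes outside the members were falls. WDR59, a GATOR2 subunit, held 38.7 and 39.3 CPM with SPHINX31 and 25.2 and 23.6 CPM in the combination (log2 fold change −0.67 ± 0.061, adjusted p = 7.71e-07). WDR24, another GATOR2 subunit, went from 14.3 and 13.7 CPM to 9.87 and 9.19 CPM (−0.56 ± 0.087, adjusted p = 0.000125). Both genes were lower in each combination library than in each SPHINX31 library. EIF4EBP1, the repressor of cap-dependent translation that mTORC1 inactivates, went from 169 and 147 CPM to 93.9 and 112 CPM (−0.62 ± 0.082, adjusted p = 6.68e-05). RPS6KB2, one of the S6 kinases that mTORC1 activates, went from 45.6 and 42.1 CPM to 29.6 and 27.4 CPM (−0.62 ± 0.067, adjusted p = 3.84e-06). WDR24, WDR59 and RPS6KB2, like MIOS and SESN3 below, share exonic bases with genes on the opposite strand, and the strand setting of the counting is not given in the sources used here.

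**Figure D4:**
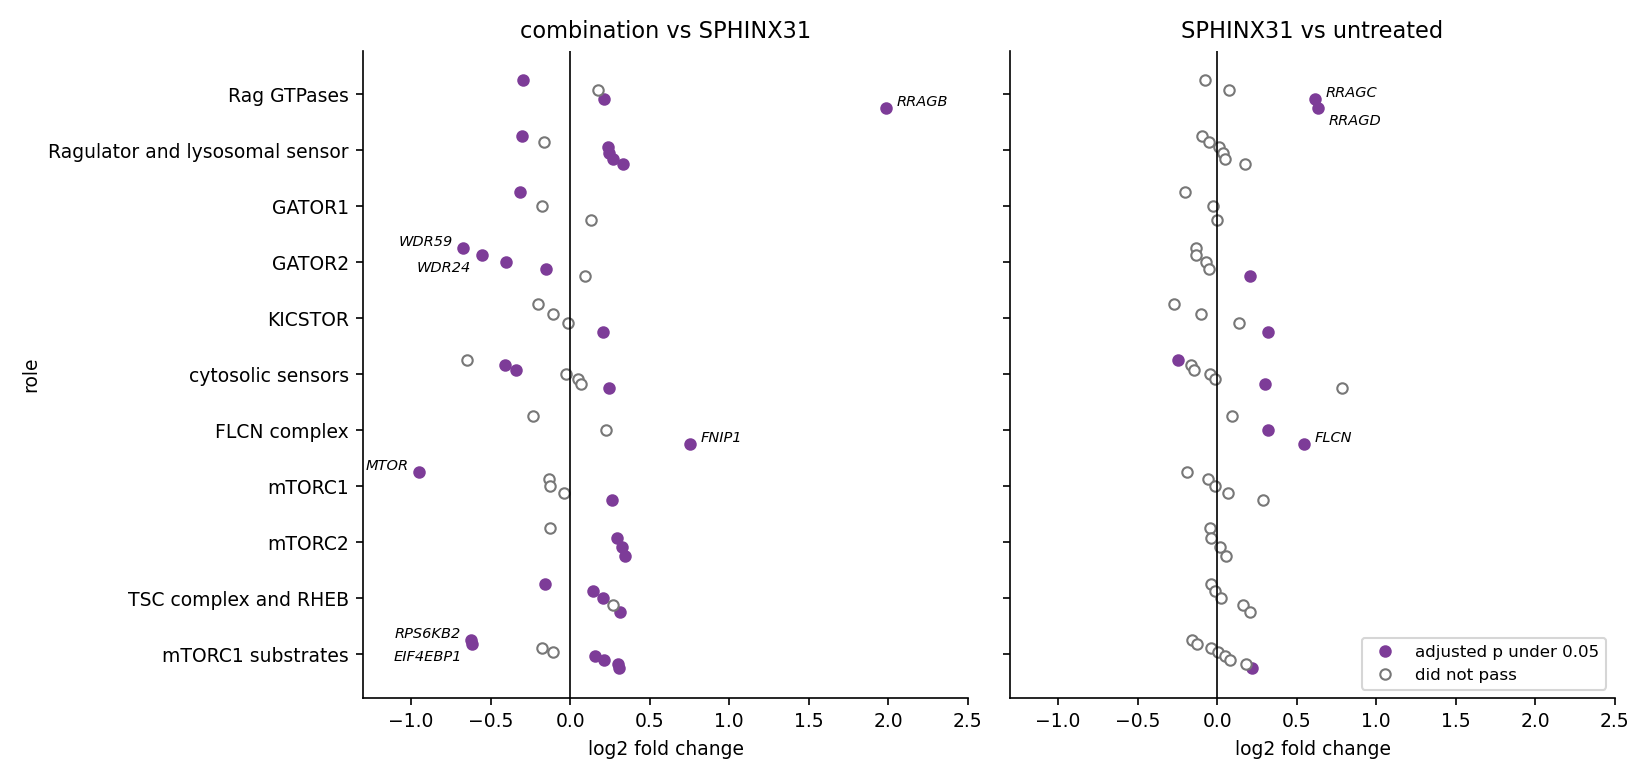
Log2 fold changes of the 54 pathway genes by role for the combination against SPHINX31 and for SPHINX31 against untreated, filled where the adjusted p was under 0.05 and labelled where the change was also at least 0.5 in size. RRAGB, FNIP1, MTOR, WDR59, WDR24, RPS6KB2 and EIF4EBP1 are labelled on one side and RRAGC, RRAGD and FLCN on the other.

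SPHINX31 against untreated called 9 of the 54 pathway genes, 8 higher and 1 lower, where 8.66% of all genes were called, 5.03% higher and 3.63% lower. The 4 called members are among the 9, and every other call was lost when either untreated library was left out. The others were MIOS of GATOR2 at 0.21 ± 0.057 (adjusted p = 0.0379), KICS2 of the KICSTOR complex at 0.32 ± 0.065 (adjusted p = 0.00774), the leucine sensor SESN2 at 0.30 ± 0.071 (adjusted p = 0.0183), its relative SESN3 at −0.24 ± 0.061 (adjusted p = 0.0226) and TFE3 at 0.22 ± 0.056 (adjusted p = 0.0259). The number of pathway genes called was 2 without untreated replicate 2, 3 without untreated replicate 1 and 5 without SPHINX31 replicate 1. For the combination against indisulam 6 of 54 were called, 5 higher and 1 lower, the 4 members again included, where 7.64% of all genes were called, 3.22% higher and 4.42% lower. SESN2 was called again at 0.32 ± 0.073 (adjusted p = 0.0157) and SESN3 again at −0.26 ± 0.060 (adjusted p = 0.0186). The number called was 3 without indisulam replicate 1, 3 without combination replicate 1 and 3 without combination replicate 2.

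SESN2 and SESN3 moved in opposite directions with each agent, but their calls with SPHINX31 depended on single libraries. Against untreated cells both calls were lost without either untreated library. Against indisulam both were lost without indisulam replicate 1 or combination replicate 2. SESN2 was measured at 42.1 and 42.9 CPM in untreated cells, 54.1 and 50.6 CPM with SPHINX31, 32.4 and 33.5 CPM with indisulam, and 37.9 and 44.6 CPM in the combination. SESN3 was measured at 54.1 and 54.3 CPM in untreated cells, 43.2 and 48.3 CPM with SPHINX31, 65.6 and 64.1 CPM with indisulam, and 55.5 and 53.1 CPM in the combination. SESN2 was thus highest and SESN3 lowest with SPHINX31 alone, and the reverse held with indisulam alone. Against SPHINX31 the combination differed by −0.34 ± 0.072 for SESN2 (adjusted p = 0.00121) and by 0.25 ± 0.061 for SESN3 (adjusted p = 0.00394). In the combination both stood near their untreated levels, with log2 differences of −0.04 ± 0.072 and 0.00 ± 0.060 from untreated cells.

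The genes whose pattern was most like that of RRAGB were found among 9945 others whose plain mean of log2 CPM over the libraries reached 3 (a slightly different average from the one edgeR gives), by the root mean squared difference over the 8 libraries of log2 CPM centred on the untreated mean. PTBP2, a splicing regulator best known from neurons, was nearest at 0.146. It held 14.8 and 15.1 CPM in untreated cells, 67 and 69 CPM with indisulam, 14.3 and 15.2 CPM with SPHINX31, and 71.3 and 73.6 CPM in the combination. Like RRAGB it was far higher in the 4 libraries with indisulam and differed little with SPHINX31. AMH, the anti-Müllerian hormone, followed at 0.4, SEC31B, a COPII coat protein, at 0.44, ZNG1B, a GTPase that delivers zinc, at 0.446 and ZNF557, a zinc finger protein, at 0.448. The rise of these 4 was smaller, with log2 differences of 1.34 to 1.61 between the indisulam and untreated groups. ZNG1B belongs to a family of near-identical copies, so its counts are uncertain. Likeness over 8 libraries is a description that uses the contrast by which RRAGB was chosen.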

How the data were processed

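Poly(A) RNA of 8 A549 libraries was sequenced with a stranded kit. Per the labels and the study's methods, the authors aligned reads to GRCh38 with HISAT2 2.2.1 and counted them per gene with HTSeq. The deposited values are raw counts, one file per library, and the HTSeq version, strand setting and annotation release are not given in the sources used here. Reads that HTSeq assigned to no gene were 14% to 17% of the recorded reads and stayed out of library sizes.

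Groups came from the treatment label. Counts of all 8 libraries were filtered with filterByExpr, scaled by TMM and tested with edgeR 4.0.16 (glmQLFit robust, glmQLFTest, 4 residual degrees of freedom, R 4.3.3) with Benjamini-Hochberg adjustment over 18661 genes at 0.05. The square root of edgeR's common dispersion, which edgeR names the biological coefficient of variation, was 0.049, here between technical replicates. Members and lists were chosen with earlier results of these data known. Named beside the members were pathway genes passing the test with an absolute log2 change of at least 0.5 between the combination and SPHINX31, those passing where SPHINX31 was added, and the 5 genes nearest to RRAGB. The libraries of each group differed by more than Poisson sampling gives (chi-square over its degrees of freedom 6.35 to 10.1) and were kept as 2. Lengths and coordinates came from GENCODE 44 and promoter windows from RefSeq. Alternatives were other scalings, filters, DESeq2 1.42.0, the compared libraries alone, a replicate block, 1 library left out at a time and a correction for GC content over 40 bins of genes. The fit was tested on simulated data, with changed genes drawn at random from all tested genes. Between pairs of groups it found 53% to 64% of log2 changes of 0.5 and 73% to 89% of changes of 1. The recorded reads outside annotated features were not used in any comparison of genes.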

Additional observations from a re-analysis of the deposited data

Results flagged for a closer look

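Reads outside annotated features, which no comparison of genes used, took a larger share of the recorded reads in the libraries with indisulam than in the untreated ones. The share was 5.48% and 4.49% with indisulam and 5.87% and 4.87% in the combination, against 3.94% and 4.34% in untreated cells and 3.67% and 3.93% with SPHINX31. These 4 libraries were singled out because each exceeds both untreated libraries. Its part in the results on the members was not tested.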

How the results depend on the processing

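No member changed direction where it was called. Of 280 values of single members with 1 library left out, 253 kept their call or lack of one, and 16 lost a call. Values of the untested contrast were counted as kept where they moved by less than 1 SD between libraries. Of 470 values under the other settings 452 were kept and 2 lost a call. A value that was never called could change sign and still count as kept. LAMTOR1 for SPHINX31 against untreated, for example, ran from −0.03 to 0.12 with 1 library left out. With 1 library left out, its partner is assumed to vary like the other groups. Genes called then ranged from 7362 to 8097 for the combination against SPHINX31, 5899 to 6844 for indisulam against untreated, 489 to 1578 for SPHINX31 against untreated, 463 to 1050 for the combination against indisulam, 7235 to 7657 for the combination against untreated and 0 to 1 for the interaction. In the same order, pathway genes called ranged from 26 to 30, 19 to 27, 2 to 9, 3 to 7 and 25 to 31, and members called from 5 to 6, 3 to 4, 2 to 4, 2 to 4 and 5 to 8. The fewest calls came without untreated replicate 1 (489 for SPHINX31 against untreated) and without combination replicate 2 (463 for the combination against indisulam). The interaction called 92 genes with every gene of at least 1 count kept and 31 in DESeq2. A correction for GC content, chosen after seeing the data, gave 36 for the interaction, 2774 for SPHINX31 against untreated and 2421 for the combination against indisulam (11 of the pathway). For indisulam against untreated, where nothing is read from the count of members, it called 7 members and 9109 of 18596 genes. The cause of these shifts was not tested. RRAGC and RRAGD had between 264 and 702 reads a library, which limits the precision of their small differences.

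The replicate numbers did not pair the libraries in one direction across the groups. Correlations of same-numbered deviations ran from −0.569 for untreated with indisulam to 0.455 for untreated with SPHINX31, over 9946 genes. Indisulam with SPHINX31 gave −0.494, and the pairs with the combination lay between 0.016 and 0.167. Whether libraries of different groups share a factor was not tested. With the replicate number as a block, calls were 9064 for the combination against SPHINX31, 7868 for indisulam against untreated, 1365 for SPHINX31 against untreated, 1204 for the combination against indisulam, 9081 for the combination against untreated and 0 for the interaction. FLCN passed between the combination and SPHINX31 (−0.24, adjusted p = 0.0379) and RRAGC no longer passed between the combination and indisulam (adjusted p = 0.052) under edgeR's quasi-likelihood test. With the indisulam numbers exchanged, a block chosen after seeing the data called 8950 of 18661 genes and 7 members for indisulam against untreated, and nothing is read from that count of members.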
